A study of Homo sapiens with 12 samples.

Results

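The genes of the G1 to S transition were followed in A549, a cell line derived from a human lung adenocarcinoma, as a group of 10 members out of the 22564 genes of the expression table. The members were the D-type cyclins CCND1 and CCND3, the E-type cyclins CCNE1 and CCNE2, the cyclin-dependent kinases CDK2, CDK4 and CDK6, the inhibitors CDKN1A (p21) and CDKN1B (p27), and the retinoblastoma gene RB1. They were chosen by symbol, with the row of the highest mean taken for each symbol, and each of the 10 was found. Total RNA was sequenced from cells transfected with an siRNA against YTHDC1, a nuclear reader of the RNA modification m6A (siYTHDC1, 6 libraries), or with a scrambled control siRNA (siSCR, 6 libraries). Both groups received 40 nM of siRNA for 48 to 72 h and carried no other agent. The labels do not say whether libraries of a group came from separate cultures.

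The table gives 1 value per gene that is not a comparison of the groups, the authors' mean of the normalized read counts over all 12 libraries, siYTHDC1 and siSCR together. Every level below is this mean, or this mean divided by the length of the gene's exons in kilobases (per kb), so that genes of unequal length can be set side by side. The mean was not split by group, so nothing below compares siYTHDC1 with siSCR. No value per library was analysed here, so the spread between libraries and the depth of each library are unknown, the levels carry no error and no difference between genes was tested. The targeted gene could therefore not be checked in each library, and YTHDC1 had a mean of 232 normalized counts, or 33.0 per kb. In bulk RNA, fewer cells transcribing a gene and less RNA of it per cell cannot be told apart.

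The members form the switch by which a mammalian cell commits to DNA replication. D-type cyclins rise with growth signals and bind CDK4 and CDK6, and these kinases begin the phosphorylation of the RB1 protein, which in its unphosphorylated form holds E2F transcription factors inactive. E-type cyclins, themselves products of E2F target genes, then activate CDK2, which completes the phosphorylation of RB1 and helps replication to start. CDKN1A and CDKN1B bind and inhibit cyclin E-CDK2, and CDKN1A is a classical target of the p53 protein after DNA damage. In lung adenocarcinoma this switch is often altered, for example by loss of the INK4 inhibitor locus.

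The sequences just before the transcription starts of CDK4, CCNE1 and CDKN1A are shown as those of 1 kinase, 1 cyclin and 1 inhibitor of the group. CDK4 was chosen for its E-boxes, and CCNE1 and CDKN1A as the cyclin and the inhibitor with the most GC boxes, after these matches were seen. They come from RefSeq promoter entries (table built on GRCh38.p14). Such entries were matched for 7 of the 10 members, 10 entries in all, and each was found exactly 1 time in GRCh37, the build of the files, whose coordinates are given. Each is the 250 bases before the start, 5′ to 3′ on the gene's strand, at chr12:58146094-58146343 (minus strand) for CDK4, chr19:30302648-30302897 (plus strand) for CCNE1 and chr6:36646241-36646490 (plus strand) for CDKN1A. Capitals mark the E-box CACGTG in CDK4 and the GC box GGGCGG, on either strand, in the others.
CDK4: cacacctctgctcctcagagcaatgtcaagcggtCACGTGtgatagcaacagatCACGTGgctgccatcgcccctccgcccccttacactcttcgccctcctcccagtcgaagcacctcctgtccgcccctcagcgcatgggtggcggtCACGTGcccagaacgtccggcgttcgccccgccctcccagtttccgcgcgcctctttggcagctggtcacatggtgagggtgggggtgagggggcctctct
CCNE1: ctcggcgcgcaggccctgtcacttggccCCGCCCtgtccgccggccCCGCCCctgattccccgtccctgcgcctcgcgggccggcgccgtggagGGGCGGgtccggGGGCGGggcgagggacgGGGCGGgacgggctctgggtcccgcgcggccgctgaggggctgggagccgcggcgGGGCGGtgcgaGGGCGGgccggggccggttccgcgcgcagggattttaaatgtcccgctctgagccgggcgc
CDKN1A: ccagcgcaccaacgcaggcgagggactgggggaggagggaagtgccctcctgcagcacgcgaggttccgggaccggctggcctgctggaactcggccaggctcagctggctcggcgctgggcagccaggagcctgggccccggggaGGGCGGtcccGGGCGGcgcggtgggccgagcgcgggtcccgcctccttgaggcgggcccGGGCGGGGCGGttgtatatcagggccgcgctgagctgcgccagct

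CDK4 held 3 E-boxes, which began 216, 196 and 101 bases before the start. At least 1 E-box was found in 6.34% and 3 or more in 0.0797% of the 35116 promoters of the same length. The other entries of the members held none. CCNE1 held 7 GC boxes, from 222 to 61 bases before the start, and 81.2% of its bases were G or C. At least 1 GC box was found in 42.6% of all promoters, and 7 or more in 1.12%. CDKN1A held 4 GC boxes, beginning 104, 94, 45 and 40 bases before the start, of which the last pair overlap by 1 base. Not every entry lies at the start of the annotation's canonical transcript. The only RB1 entry lies 172699 bases from it, so the bases before that start of RB1 were not examined. CCND3 entries lie 106880 and 2603 bases from theirs, and a CDK6 entry 2614 bases. Of the 10 entries, 7 held a GC box and 3 held a CCAAT box (CCAAT, in 32.0% of all promoters). The TATA box TATAAA (10.7% of all promoters) and the E2F forms TTTCCCGC (1.39%) and TTTGGCGC (0.55%), searched on both strands, were in none of them. These matches describe letters in these windows, and the levels below were not tested against them.

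All 10 members were above the median of the table, which was 65.8 normalized counts, and 4 of them were in the top 10% of genes, which began at 1241. The median member had a mean of 1038, at percentile 87.6 of all genes. The lowest member, CCNE2, was at percentile 57.7 and the highest, CCND1, at percentile 99.2. Many rows of the table are lowly expressed non-coding genes. Against the 14100 protein-coding rows alone, whose median was 313, 8 members were above the median and 3 in the top 10%, and the E-type cyclins CCNE1 and CCNE2 were the members below it. Per kb, 10 members were above the median of all rows, 32.2, and 5 in the top 10%, which began at 226. Against the protein-coding rows, whose median was 58.6 per kb, 8 members were above it. CDKN1B at 47.6 and CCNE2 at 33.1 were below it.

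**Figure D1:**
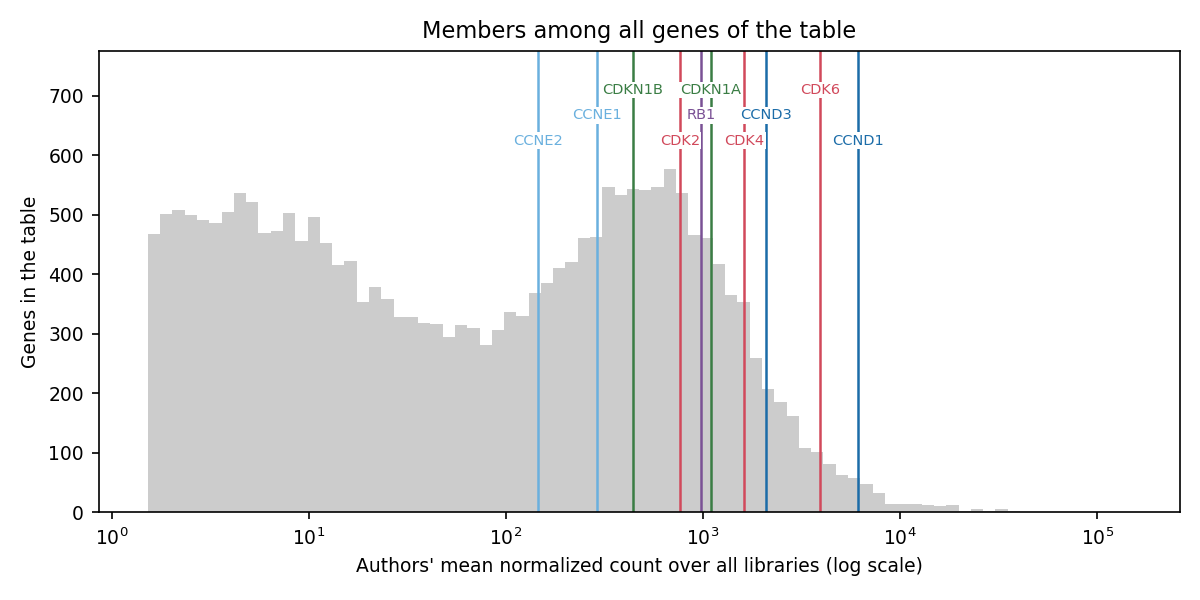
Histogram of the authors' mean normalized count over all libraries for the 22564 genes (x axis, log scale; y axis, number of genes), with a vertical line at each member. The lines run from CCNE2 at 145 to CCND1 at 6131, all to the right of the median of 65.8.

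CCND1, the D-type cyclin most often amplified in human tumours, was the most abundant member on each scale used. Its mean was 6131 normalized counts, and per kb of its 4761 bases of exon it reached 1288. The gene (ENSG00000110092.3) lies at chr11:69455924-69469242 on the plus strand. CCND3, the other D-type cyclin of the group, which is prominent in blood cells, had a mean of 2094 and 363 per kb (ENSG00000112576.8, chr6:41902672-42018095, minus strand). CCND1 was thus 2.93 times CCND3 by mean and 3.54 times by level per kb. CCND3 spans 115.4 kb with several starts in the annotation, and with the longest protein-coding transcript as the length its value rose to 875 and the ratio fell to 1.65. CCND2, the remaining D-type cyclin, was close to the foot of the table with a mean of 1.66. The pair of expressed D-type cyclins made up 48.5% of the members' summed level per kb.

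Of the D-type cyclins' partners, CDK6 had the higher mean and CDK4 the higher level per kb. CDK6 had a mean of 3908 normalized counts (ENSG00000105810.5, chr7:92234235-92465887, minus strand) and CDK4 one of 1617 (ENSG00000135446.12, chr12:58141510-58149796, minus strand). The exons of CDK6 cover 12239 bases and those of CDK4 3094 bases. Per kb, CDK4 was at 523 and CDK6 at 319, a ratio of 1.64 in favour of CDK4, against 0.414 before division by length. With the longest protein-coding transcript the ratio was 2.59, and with the median length of all annotated transcripts it was 0.417. That median is set by short annotated transcripts and raised the level of CDK6 to 5017 per kb. Which of these kinases was the more abundant therefore turned on the length used. Together they summed to 842 per kb, or 24.7% of the members' total, and the D-type cyclins summed to 1.96 times that.

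The E-type cyclins were the least abundant family of the switch by summed level per kb, just below RB1 alone. CCNE1 had a mean of 289.6 normalized counts and 118 per kb (ENSG00000105173.9, chr19:30302898-30315219, plus strand). CCNE2, its paralog, had a mean of 145 and 33.1 per kb (ENSG00000175305.12, chr8:95891998-95908906, minus strand), the lowest of the members on both scales. CCNE1 was 1.99 times CCNE2 by mean and 3.56 times per kb. The ratio was 3.40 with the longest protein-coding transcript and 1.12 with the median transcript length. The family summed to 150.8 per kb, 4.43% of the members' total, so that D-type cyclins exceeded E-type cyclins by 11.0 times, by 12.1 times with the longest protein-coding transcript and by 34.2 times with the median length.

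CDK2, the kinase that E- and A-type cyclins activate, had a mean of 763 normalized counts and 196 per kb (ENSG00000123374.6, chr12:56360565-56366573, plus strand). This was 1.30 times the summed level of its E-type partners. CDK4 exceeded CDK2 by 2.66 times per kb, and CDK4 and CDK6 together exceeded it by 4.29 times. The latter ratio was 3.53 with the longest protein-coding transcript and 11.2 with the median length. CCNA2, the A-type cyclin that binds CDK2 in S phase, was not a member and had a mean of 1144, or 416 per kb.

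**Figure D2:**
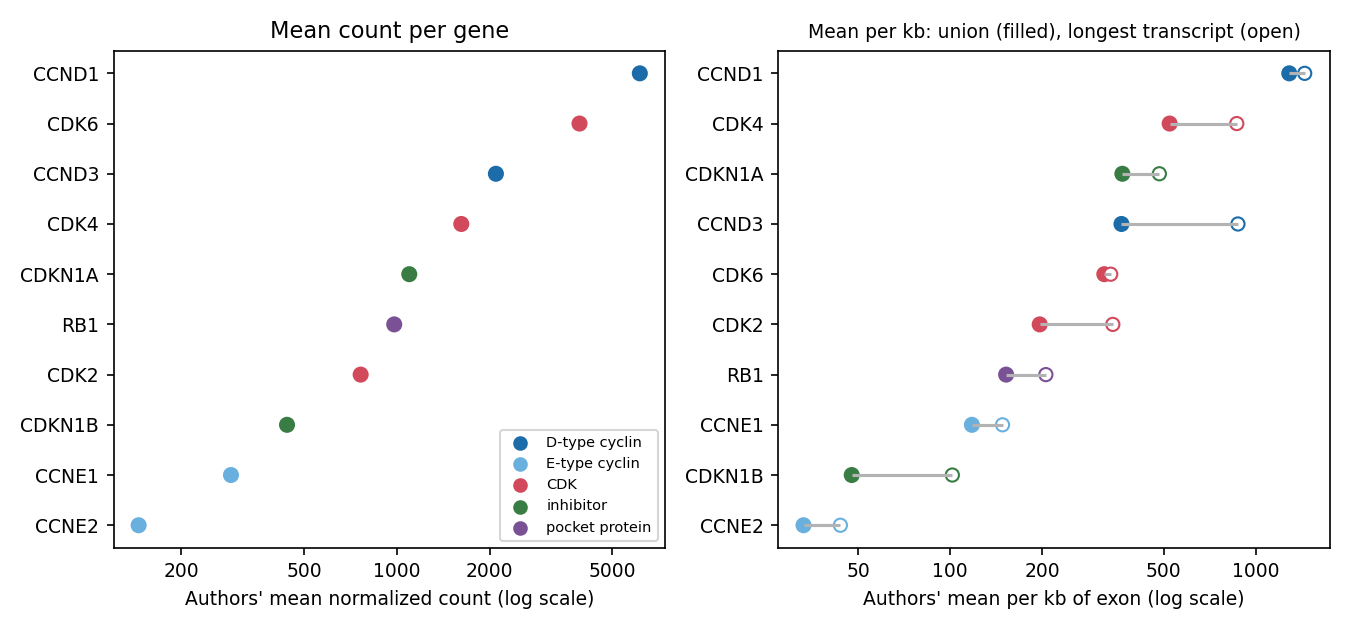
Level of each member, coloured by role, as the authors' mean normalized count (left, log scale) and as that mean per kb of exon (right, log scale), where filled points use the union of exons, open points the longest protein-coding transcript and grey lines join them. CCND1 is highest and CCNE2 lowest in both panels, CDK6 drops from rank 2 to rank 5 once length is divided out, and CCND3 and CDKN1B have the widest gaps between the lengths.

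Of the inhibitors, CDKN1A was the more abundant. It had a mean of 1096 normalized counts and 366 per kb (ENSG00000124762.9, chr6:36644237-36655114, plus strand). CDKN1B, which restrains CDK2 in resting cells and is removed by ubiquitin ligases as cells enter the cycle, had a mean of 440.2 and 47.6 per kb (ENSG00000111276.6, chr12:12838432-12875303, plus strand). CDKN1A exceeded CDKN1B by 2.49 times on the mean, by 7.69 times per kb, by 4.76 times with the longest protein-coding transcript and by 4.15 times with the median length. The annotation gives CDKN1B 9255 bases of exon in all but 2411 in its canonical transcript, and its value per kb rose to 102 with the longest protein-coding transcript and to 183 with the median length. Per kb, CDKN1A was at 1.87 times its target CDK2, and at 1.19 times with the median length. CDKN1C (p57), the third member of the CIP/KIP family, had a mean of 8.61.

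RB1, the substrate on which the kinases converge, had a mean of 980.0 normalized counts and 152 per kb (ENSG00000139687.9, chr13:48877880-49173572, plus strand). It has the longest locus of the members, 295.7 kb with 27 exons in its canonical transcript. Its relatives among the pocket proteins had like values, with a mean of 1081 and 181 per kb for RBL1 (p107) and of 950.5 and 117 per kb for RBL2 (p130).

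In descending order of the level per kb the members stood as CCND1, CDK4, CDKN1A, CCND3, CDK6, CDK2, RB1, CCNE1, CDKN1B and CCNE2. The largest steps between neighbours were from CCNE1 to CDKN1B, 2.47 times, and from CCND1 to CDK4, 2.46 times. These steps were 1.46 and 1.67 times with the longest protein-coding transcript, and 1.23 and 5.23 times with the median length. CDKN1A and CCND3 differed by 1.01 times and changed places with the longest protein-coding transcript, where CDKN1A was at 0.553 times CCND3. CDK6 and CDK2, 1.63 times apart, also changed places there, at 0.984 times. Of the 45 pairs of members, 42 kept their order between the union of exons and the longest protein-coding transcript, and 36 kept it when the median transcript length was added. With no library values, no neighbours in this order can be said to differ beyond their spread.

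The canonical transcripts of the members differed mainly in the 3′ UTR. In CCND1, CCNE1, CDK2, CDK4, CDK6 and RB1 the canonical transcript has the length of the longest protein-coding transcript, used above as a divisor. CDK6 has 11663 bases of transcript, of which 978 are coding and 10219, or 87.6%, are 3′ UTR. CCND1 has 885 coding bases and a 3′ UTR of 75.3%, and CDKN1A 492 coding bases and a 3′ UTR of 72.4%. In 6 members the 3′ UTR took up over 50% of the transcript, the others being CDKN1B, CCNE2 and CDK2. RB1 has the longest coding sequence, 2784 bases, and CCNE1 the smallest share of 3′ UTR, 27.4%. A read from a long 3′ UTR counts like one from the coding sequence, so the length that divides the mean includes it.

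**Figure D3:**
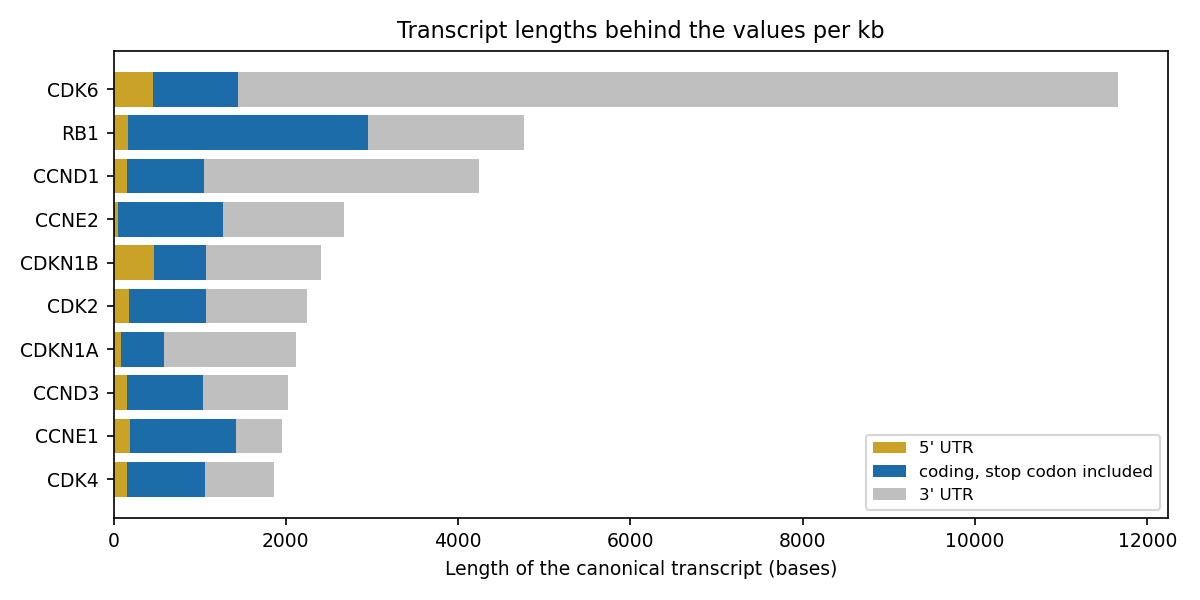
Length in bases of the canonical transcript of each member, split into 5′ UTR, coding sequence with the stop codon, and 3′ UTR. CDK6 stands apart with 11663 bases, 10219 of them 3′ UTR, and CDK4 is the shortest with 1865.

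Reads of some members cannot be assigned without their strand. The libraries were made with a stranded kit, but whether strand was used in counting was not given in the sources used here. Stretches of 100 bases from each canonical transcript were looked up in the annotated transcripts of all other genes. On the same strand, 0 stretches of any member were shared, which covers identical stretches only, and copies that differ by a base in each stretch were not looked for. On the opposite strand CCNE2 shared 55.3% of its stretches, 1424 of 2575, with INTS8, a subunit of the Integrator complex with a mean of 1099 normalized counts. CDK4 shared 47.1%, 831 of 1766, with TSPAN31, which had a mean of 216. The levels of CCNE2 and CDK4 are uncertain for this reason, by an amount that was not measured. For CCNE2 the neighbour had the higher mean while for CDK4 it had the lower. CDK2 shared 8.78% with a long non-coding RNA (ENSG00000258554) at a mean of 2.72, and CCND1 7.30% with LTO1 at 362. The other 6 members shared none.

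**Figure D4:**
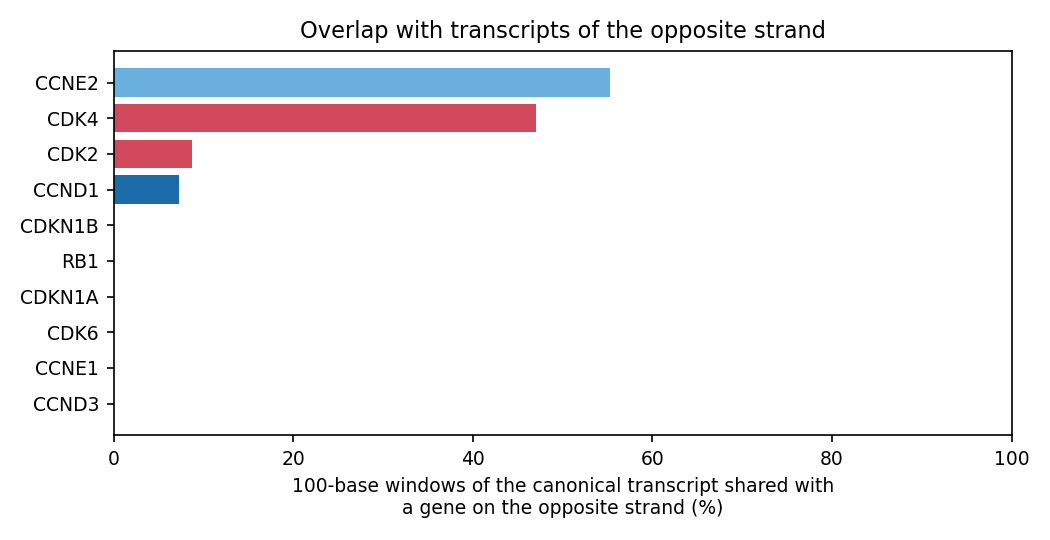
Share of the 100-base stretches of each member's canonical transcript that are also found in a transcript of another gene on the opposite strand, in percent. CCNE2 (55.3%) and CDK4 (47.1%) stand above CDK2 (8.78%) and CCND1 (7.30%), and the other 6 members are at 0.

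The rest of the G1 to S pathway was read from lists fixed by role, 38 genes beside the members. Of these, 35 had a row, 31 of them above the median of the table and 4 in the top 10%, and their median was 512 normalized counts and 94.9 per kb. Below the median of the protein-coding rows, 313, were CCND2, CDK3, CDK7, MNAT1, CDKN1C, CDKN2C, CDKN2D, E2F8, CDC25C and RBX1. The members' median was 258 per kb. CCNA1, CDKN2A and CDKN2B were not analysed here. The genes under 10 normalized counts were CCND2, CDKN1C and CDK3, a kinase related to CDK2, at 1.77.

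The kinase that activates the CDKs by phosphorylating their T-loop, formed of CDK7, CCNH and MNAT1, was within a narrow range, with means of 288, 507 and 300.4 normalized counts and levels per kb from 77.5 to 119. Of the INK4 inhibitors, which bind CDK4 and CDK6, CDKN2C (p18) had a mean of 285 and 94.6 per kb, and CDKN2D (p19) a mean of 26.5 and 17.6 per kb. Per kb, CDKN2C stood between CDKN1A at 366 and CDKN1B at 47.6, and CDKN2D below both. CDKN2C fell below CDKN1B with the longest protein-coding transcript (98.3 against 102), with the median length (137 against 183) and on the mean. The 10 E2F and DP factors, of which RB1 and its relatives hold only some inactive, all had rows, with means from 300.1 for E2F8 to 1352 for TFDP1. Among the activating E2Fs, E2F1 was at 738 and 274 per kb. E2F4, which works mainly with the pocket proteins in repression, was at 955 and 266 per kb. RB1 at 152 per kb was below both of them, as it was with the longest protein-coding transcript, but above both with the median length (1489 against 274 and 1297) and on the mean.

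The phosphatase gene CDC25B had a level per kb of 1500, the highest of the pathway genes with the union of exons, and a mean of 5855 normalized counts. It was above CCND1 per kb and below it by mean, and with the median length CCND1 was at 10939 and CDC25B at 2960. CDC25A, which removes the inhibitory phosphates from CDK2 in G1, was at 512 and 123 per kb, and CDC25C at 195 and 58.5 per kb. WEE1 and PKMYT1, kinases that place inhibitory phosphates on CDKs, had means of 878 and 828.

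The ubiquitin ligase parts that remove members were all above the median of the table, and all but RBX1 above that of the protein-coding rows. SKP2, the F-box protein for CDKN1B, had a mean of 561 and 32.3 per kb, against 47.6 per kb for its substrate. By mean SKP2 was the higher, and with the median length the values were 182 and 183. CKS1B, its cofactor in that reaction, was at 299 per kb, and the related CKS2 at 839. FBXW7, which targets cyclin E, was at 372 and 33.0 per kb, close to CCNE2 and below CCNE1 per kb. AMBRA1, which targets D-type cyclins, was at 925 and 121 per kb, and FBXO31, also linked to cyclin D1, at 461. The shared scaffold SKP1 was at 1709, CUL1 at 1284 and RBX1 at 110.

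**Figure D5:**
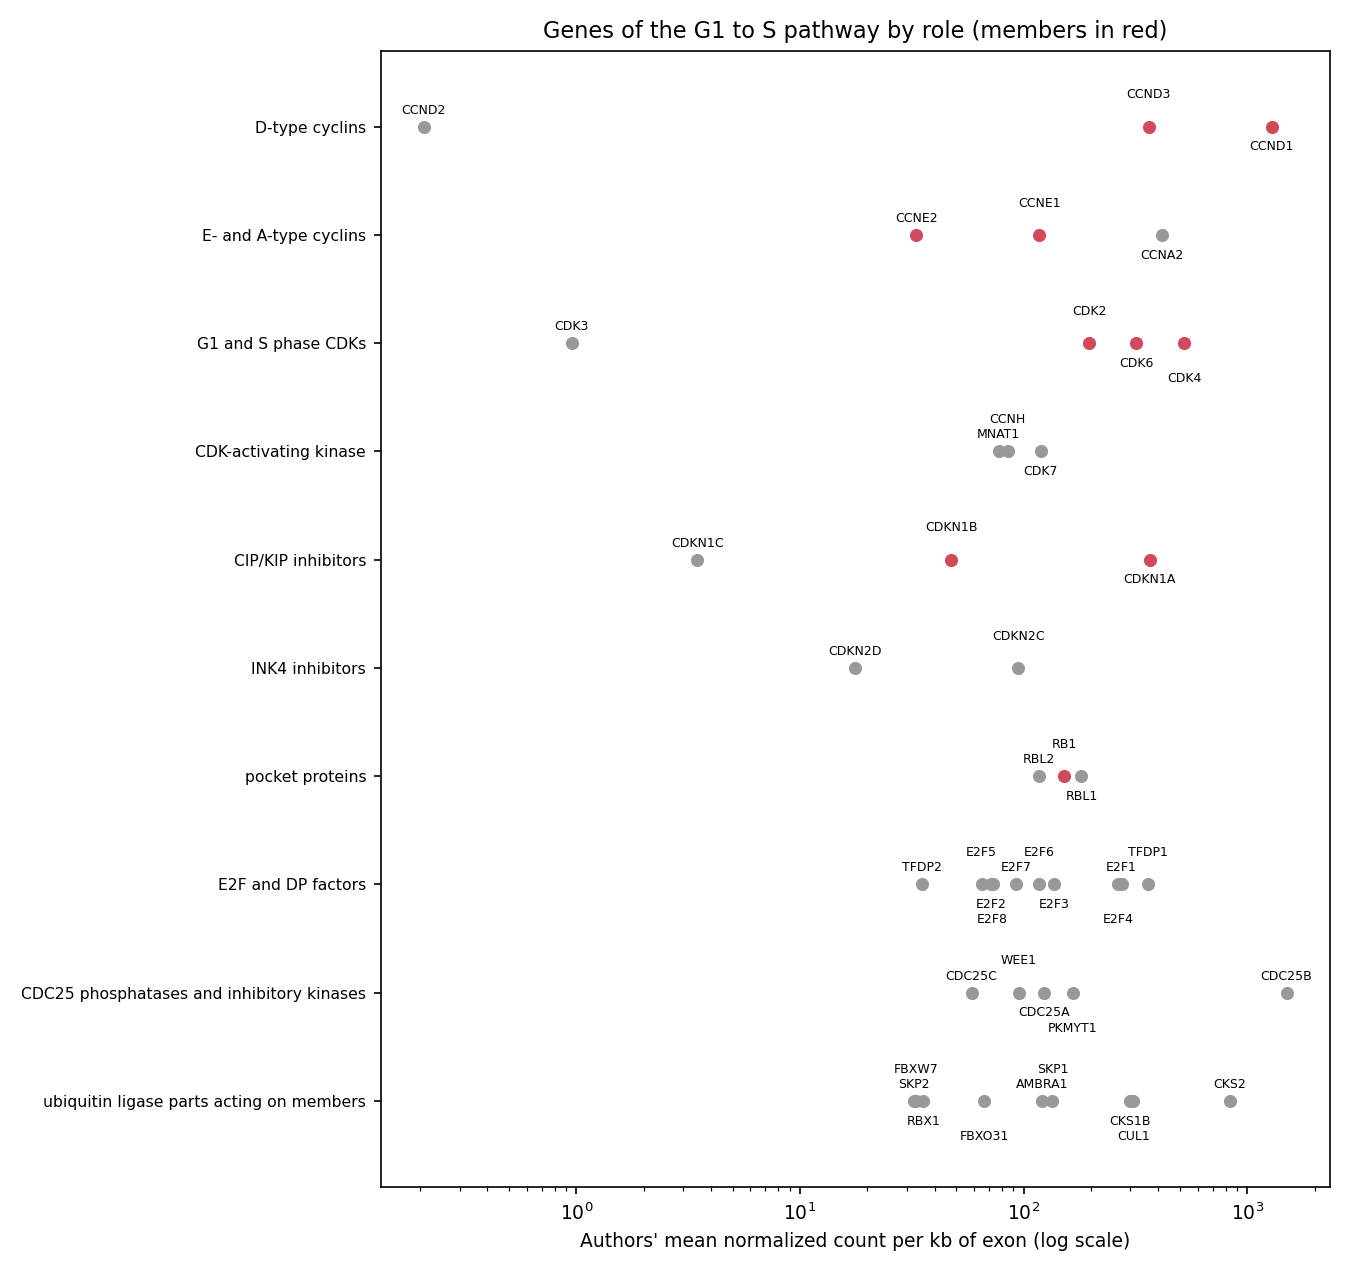
Authors' mean normalized count per kb of exon (x axis, log scale) of the 45 pathway genes with a row, grouped by role, with members in red and other genes in grey. CDC25B (1500) and CCND1 (1288) are farthest to the right, and CCND2, CDK3 and CDKN1C are the only points left of 10 per kb.

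The identity of the cells was read from marker genes. All 5 epithelial markers had rows, with means of 27600.4 normalized counts for KRT8, 14908 for KRT18, 1011 for CDH1, 673 for KRT19 and 58.4 for EPCAM, the last below the median of the table. Of 8 markers of alveolar and club cells, 1 had a row, NAPSA at 17.3. Of 10 markers of blood, vessel, muscle and connective tissue cells, 3 had rows, COL1A1 at 194, ACTA2 at 93.5 and CD68 at 2.62. Per kb of the union of exons, KRT18 at 4858 and KRT8 at 4011 were above every member, while with the median length KRT18 at 10551 was below CCND1. The markers of differentiated lung epithelium other than NAPSA were not analysed here.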

How the data were processed

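Total RNA of 12 A549 libraries, depleted of ribosomal RNA, was sequenced. The authors aligned reads to hg19 with STAR, counted them per gene with HTSeq on a GENCODE annotation and ran DESeq2 with the sequencing batch as an extra variable; batch membership is not in the labels. They deposited 1 table of 22564 genes. Its mean column, treated as a signal, is the authors' mean of normalized counts over all 12 libraries. The other 5 numeric columns hold their comparison of siYTHDC1 with siSCR (a log2 fold change with its standard error, a Wald statistic, and p-values before and after adjustment) and were not used. No library totals were analysed here.

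Means were divided by the union of exon lengths of GENCODE transcripts mapped to GRCh37, with the longest protein-coding transcript and the median transcript length as alternatives. Of all rows, 21798 (96.6%) matched by gene ID. The release used for the lengths is later than the one the authors counted on. It can hold exons that their counts did not cover, and the effect of this on the levels per kb was not measured. Medians, percentiles, overlaps and motifs were computed in Python 3.11.15 with pandas 2.3.3 and numpy 2.4.6, and were tested on simulated data. The test of siYTHDC1 against siSCR, planned for counts per library, was not run. The members and lists were chosen with earlier results of these data known. The genes named are the members, YTHDC1, the listed pathway genes and markers, and genes that overlap a member.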

Additional observations from a re-analysis of the deposited data

How the results depend on the processing

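No paired analysis was possible because the table has no columns of single libraries, although the labels number the replicates of both groups alike. For the same reason no library could be left out and no test was run. The counts of members above the median and in the top 10% stayed within 1.5 times under each of the 3 alternatives: protein-coding rows only (8 and 3), rows with a mean of at least 10 (9 and 4) and the sum of all rows of a symbol (10 and 4). The order per kb depended on the length. Of 10 members, 5 kept their place with the longest protein-coding transcript, 2 with the median transcript length and 2 with no length. The level per kb moved by over 1.5 times for 4 members (CCND3, CDK2, CDK4 and CDKN1B) with the longest transcript and for all 10 with the median length, upward in each case, since both lengths are shorter than the union of exons. The depth of the libraries is unknown here, so the smallest difference that could be seen is too.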
